A study of Drosophila melanogaster with 6 samples.

Results

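The interior of Drosophila melanogaster chromosome arm 3L was followed in ovary chromatin as 224436 windows of 100 bp, out of 1687367 windows counted in all. The major arms, that is the 5 large arms and chromosome 4, held 1203812 of them. The windows were chosen by position alone, on genome build dm3. They run from 200001 to 23043600 on 3L, which leaves out the first 200 kb and the last 1.5 Mb, and 8500001 to 8900000 was also left out. Unless another arm is named, positions below are on 3L in this build. No genes are named, because no annotation of this build was used here.

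The study compared ovaries of wild-type flies (Canton S) with ovaries of a su(Hw) mutant, whose titles read f and whose strain label reads su(Hw)fv. It is written su(Hw)f in the plots and called the mutant in the text. All samples came from virgin females less than 6 h old, and all chromatin was fixed with 1.8% formaldehyde. Libraries went through 15 PCR cycles, and fragments with adaptors were near 250 bp. Of each genotype, 1 preimmune library (chromatin brought down by serum from before immunization) and 1 input library (sheared chromatin before precipitation) were used, and the 2 libraries made with antibody are not analysed here. Since the genotypes are also different strains, what belongs to the background and what to the mutation cannot be told apart here. With 1 library per group no test was possible, intervals cover counting error only, and no difference has a replicate check.

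Su(Hw) is a zinc finger protein that binds DNA at many sites in the genome and is known for the gypsy insulator and for its need in oogenesis. An ovary holds nurse cells and follicle cells that copy their DNA repeatedly without dividing. In such polyploid fly cells some late-replicating regions are known to be copied less than the rest, so input can depart from an even level along an arm. Input also depends on how well DNA shears, is recovered and amplifies, and on how much of a window reads can be placed in. Copy number, placement, recovery and base composition cannot be told apart here.

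The 3L interior held 2274173 reads in wild-type preimmune, 2559234 in its input, 3705820 in mutant preimmune and 3720562 in mutant input. Per 100 kb window the median was 10115, 11424, 16512 and 16533 reads in that order. Neighbouring 100 bp windows scattered 3.78, 1.77, 4.20 and 2.74 times as much as Poisson counts would, and the error of a narrow window may be wider than its interval. No library held a read in 4.60% of the 100 bp windows, against 5.27% in the interior of 2L, 3.44% in 3R and 5.61% in X. The longest runs of such empty windows were 19701601 to 19750300, which is 48700 bp, and 6398601 to 6425200, which is 26600 bp.

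A level is the reads in a window divided by the mean of that library over the major arms, so 1 is the mean. The whole 3L interior stood at a level of 1.028 in wild-type preimmune, 1.001 in its input, 1.007 in mutant preimmune and 0.9836 in mutant input. All 4 values lay within 3% of the mean, so the arm interior as a whole was neither depleted nor enriched. Preimmune over input was 1.027 in wild type (95% interval 1.025 to 1.029) and 1.024 in the mutant (1.022 to 1.025). The mutant to wild-type ratio of inputs was 0.9826 (0.9811 to 0.9842), and that of preimmune libraries 0.9791 (0.9774 to 0.9807). The directions of the mutant preimmune over input ratio and of the input ratio between strains turn when libraries are scaled by the median ratio of their windows, to 0.9285 and 1.029.

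Below the scale of the arm, input was uneven. Over 224 windows of 100 kb, wild-type input ranged from 0.353 to 1.51 with an SD of 0.147, and mutant input from 0.358 to 1.80 with an SD of 0.201. The preimmune libraries were flatter, with a range of 0.409 to 1.34 and an SD of 0.102 in wild type, and 0.370 to 1.32 and an SD of 0.115 in the mutant. The inputs of the strains, which share no library, were high and low in the same windows, with Pearson's r = 0.95 and Spearman's rho = 0.95 over the 224 windows. These are positions within single libraries and not replicates, and they share whatever the sequence of a window does to every library. On the log2 scale mutant input moved by 1.29 for each unit of wild-type input. Mutant input was below wild-type input in 29 of the 31 dips and above it in 27 of the 28 rises described next, and the lowest window of all was near equal, at 0.353 in wild type and 0.358 in the mutant.

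**Figure D1:**
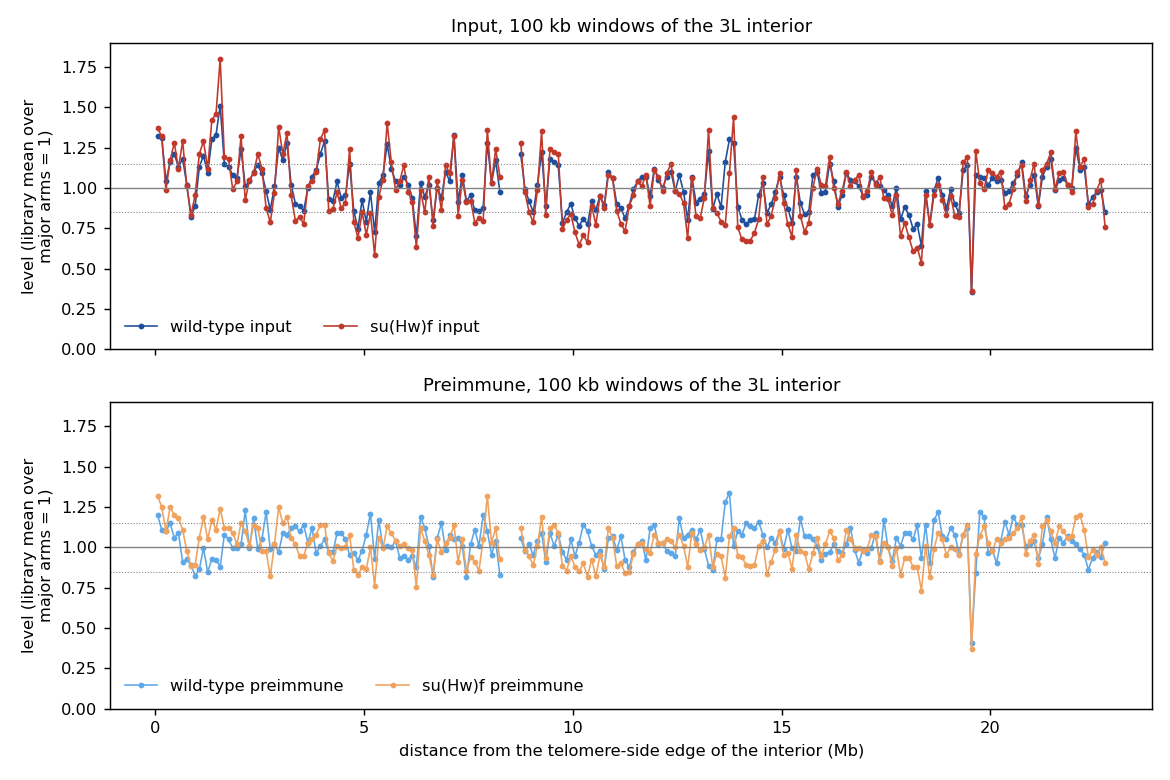
Level of each 100 kb window of the 3L interior (y axis, library mean over the major arms = 1) against distance from the telomere-side edge of the interior in Mb (x axis), for the inputs (upper panel) and the preimmune libraries (lower panel), with dotted lines 15% below and above the mean. The inputs rise and fall together, su(Hw)f with the wider swings (SD 0.201 against 0.147), and the preimmune curves are flatter. The gap is the stretch left out.

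A dip was a 100 kb window at least 15% below the mean in both inputs (a level of 0.85 or less), and a rise a window at least 15% above it in both. Dips numbered 31 of 224 (13.8%), where 17.0% of all 100 kb windows of the major arms were dips. Rises numbered 28 (12.5%), where the background was 20.4%. Both shares lay below the background, which also takes in chromosome 4 and the arm ends, so neither sets the 3L interior apart as rich in dips or rises. By the same rule the interior of 2L held 36 dips and 31 rises in 213 windows, 3R held 14 and 61 in 262, and X held 36 and 43 in 207.

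Dips and rises were placed unevenly along the arm. The 48 windows from 200001 to 5000000 held 1 dip and 16 rises. The next 46 windows, up to 10000000, held 7 and 8. From 10000001 to 15000000 there were 11 dips and 2 rises in 50 windows, and from 15000001 to 20000000 another 11 dips and 0 rises in 50. The last 30 windows, up to 23000000, held 1 dip and 2 rises. Rises thus lay mostly toward the telomere, and dips mostly in the middle of the arm. The median level of wild-type input was 1.09 in the block nearest the telomere and 0.941 between 10000001 and 15000000, and that of mutant input was 1.09 and 0.878. Wild-type preimmune had medians of 1.03 and 1.05 in those blocks, and so did not follow this course.

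In the 31 dips the median level was 0.801 in wild-type input and 0.703 in mutant input, the libraries that chose them. In the libraries that did not choose them, it was 1.01 in wild-type preimmune and 0.879 in mutant preimmune. Wild-type preimmune was at 0.85 or less in 2 of the 31 dips and below 1 in 14, where over all 224 windows it was so in 7 and 85. Mutant preimmune was at 0.85 or less in 11 of the dips and below 1 in all 31, against 15 and 103 of all 224. In the 28 rises the inputs had medians of 1.23 and 1.32. Wild-type preimmune had a median of 1.03 there and was above 1 in 20 of 28, near its share over all windows (139 of 224). Mutant preimmune was above 1 in all 28, from 1.08 to 1.32, against 121 of all 224. The dips and rises of input were therefore present in the mutant preimmune library at reduced size, and were nearly flat in the wild-type one.

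**Figure D2:**
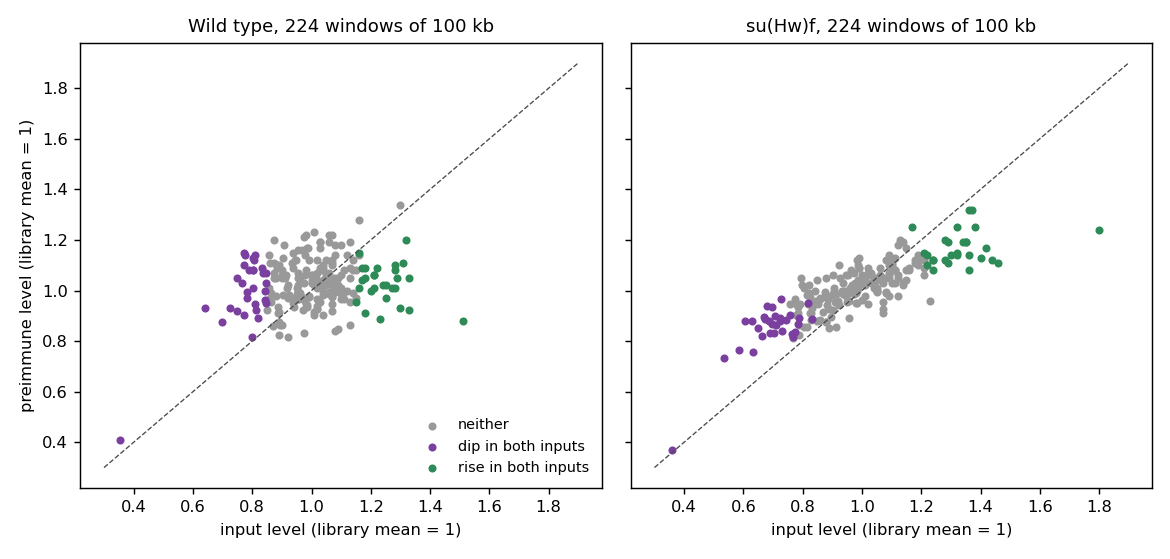
Preimmune level (y axis) against input level (x axis) of the same strain in 224 windows of 100 kb of the 3L interior, wild type on the left and su(Hw)f on the right, with dips and rises coloured and a dashed line where the levels are equal. Wild-type preimmune hardly varies with input (r = 0.23), and su(Hw)f preimmune climbs with it (r = 0.84) but less steeply than the line.

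Over all 224 windows, mutant preimmune correlated with its own input at r = 0.84 and with wild-type input at r = 0.88. Wild-type preimmune correlated with its own input at r = 0.23, with mutant input at r = 0.01 and with mutant preimmune at r = 0.41. The share of empty 100 bp windows is common to all 4 libraries, and the levels fell with it, from r = -0.39 in mutant input to r = -0.65 in mutant preimmune. In the 144 windows with less than 5% of empty 100 bp windows, a subset chosen after seeing the data, wild-type preimmune stood at r = -0.12 with its own input and mutant preimmune at r = 0.84 with its own. The same contrast was seen in the interiors of 2L, 3R and X, where wild-type preimmune gave r = 0.38, 0.18 and 0.06 with its input and mutant preimmune 0.86, 0.87 and 0.84, so it is no property of 3L. Whether it belongs to the strain or to 1 preimmune library cannot be told apart.

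Neighbouring dips were joined into 21 regions, of which 17 were single windows and 3 were 400 kb long. Between 18200001 and 18600000 lay one of these long dips, at a level of 1.05 in wild-type preimmune, 0.749 in its input (0.741 to 0.756), 0.857 in mutant preimmune and 0.617 in mutant input (0.611 to 0.623). All 40 of its 10 kb windows were at 0.85 or less in mutant input and 31 of 40 in wild-type input, while 16 of 40 were at least 15% above the mean in wild-type preimmune. The low input was spread along the whole 400 kb, of which 6.72% of the 100 bp windows were empty. Its lowest 100 kb, 18500001 to 18600000, had 21.0% empty and input levels of 0.641 and 0.536. Between 10200001 and 10600000 the levels were 1.05, 0.789 (0.781 to 0.798), 0.864 and 0.685 (0.679 to 0.691) in the same order. Only 1.22% of its 100 bp windows were empty, and 30 of 40 windows of 10 kb in wild-type input and 37 of 40 in mutant input were at 0.85 or less. This dip was low in both inputs with few windows empty. The long dip from 14200001 to 14600000, which ranked eighth and is named for its length after its values were seen, stood at 1.12, 0.795, 0.903 and 0.686. It had the highest wild-type preimmune of the 3 long dips, with 20 of 40 windows of 10 kb at least 15% above the mean. In the order given here, the 10 kb medians of wild-type preimmune in the 3 dips were 1.09, 1.02 and 1.14. Over all 2244 windows of 10 kb the median was 1.04. The share of all 10 kb windows at least 15% above the mean in wild-type preimmune is not given. The counts of such windows in the long dips are therefore not read as a rise of preimmune there.

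**Figure D3:**
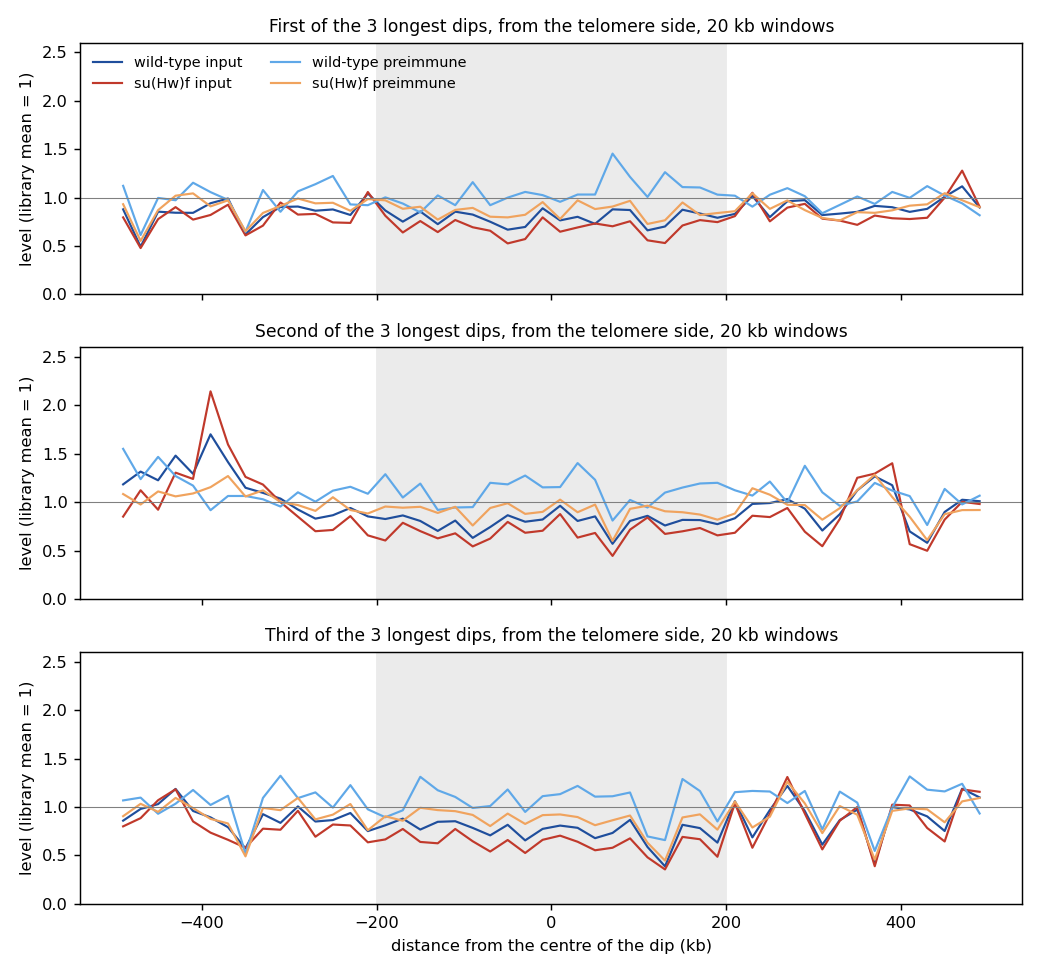
Level in 20 kb windows (y axis, library mean = 1) against distance from the centre of each of the 3 dips of 400 kb (x axis, kb), in order from the telomere side, with the dip shaded. Over each shaded stretch as a whole su(Hw)f input is lowest (0.685, 0.686 and 0.617), then wild-type input (0.789, 0.795 and 0.749). Wild-type preimmune has medians of 1.03, 1.16 and 1.11 over the 20 windows of each and dips below 1 in 6, 5 and 7 of them, to 0.658 in the last.

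The other dips named by rank were single windows with 14.2% to 67.6% of their 100 bp windows empty. In 19700001 to 19800000, the lowest window of the interior, 67.6% of the 100 bp windows were empty, and the levels were 0.409 in wild-type preimmune, 0.353 in its input, 0.370 in mutant preimmune and 0.358 in mutant input. Per 100 bp window with reads the levels were 1.26, 1.09, 1.14 and 1.11, all above 1. This window was thus low in all 4 libraries by about the share of windows without reads. Empty windows made up 14.2% of 5400001 to 5500000, 25.3% of 6400001 to 6500000 and 14.4% of 5000001 to 5100000. Per window with reads, mutant input stayed below 1 in these, at 0.682, 0.845 and 0.808, and wild-type input at 0.845, 0.936 and 0.874. Over the 31 dips the median share of empty windows was 7.60%, against 0.250% in the rises and 2.10% over all 224. Less than 5% was empty in 12 of the 31 dips, and in 144 of all 224 windows. Per window with reads, the median level over the 31 dips was 0.863 in wild-type input, above the threshold of 0.85, and 0.768 in mutant input. An alternative count with windows without reads left out gave 33 dips and 19 rises. It cannot rest on the levels per window with reads given above, which are never below the plain levels. Its baseline is therefore another one, and it does not show how many dips remain once empty windows are allowed for. The part of empty windows in the dips was not tested beyond this.

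Rises formed 20 regions. The highest, 1500001 to 1800000, stood at 0.912 in wild-type preimmune, 1.38 in its input (1.37 to 1.39), 1.17 in mutant preimmune and 1.56 in mutant input (1.55 to 1.57). Wild-type preimmune was below 1 where the other 3 libraries were above it. Within it 1700001 to 1800000 was the highest input window of the interior, at 1.51 in wild type and 1.80 in the mutant. Of the other named rises, 14000001 to 14100000 stood at 1.28 in wild-type input and 1.44 in mutant input, 5700001 to 5800000 at 1.27 and 1.40, and 8100001 to 8200000 at 1.28 and 1.36. The rise at 7300001 to 7400000 had nearly equal input levels, 1.33 and 1.32. At 200001 to 400000, next to the telomere-side edge, all 4 libraries were high, at 1.16, 1.31, 1.29 and 1.34 in the order used above.

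The interiors of 3L, 2L, 3R and X were compared for the spread of input, in which 3L ranked between 3R and 2L. The 95th percentile of the 100 kb levels was 1.96 times the 5th in mutant input and 1.63 times in wild-type input. On 2L these were 2.14 and 1.69, on 3R 1.77 and 1.51, and on X 2.27 and 1.76. In each of these 4 interiors mutant input was the most spread library.

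**Figure D4:**
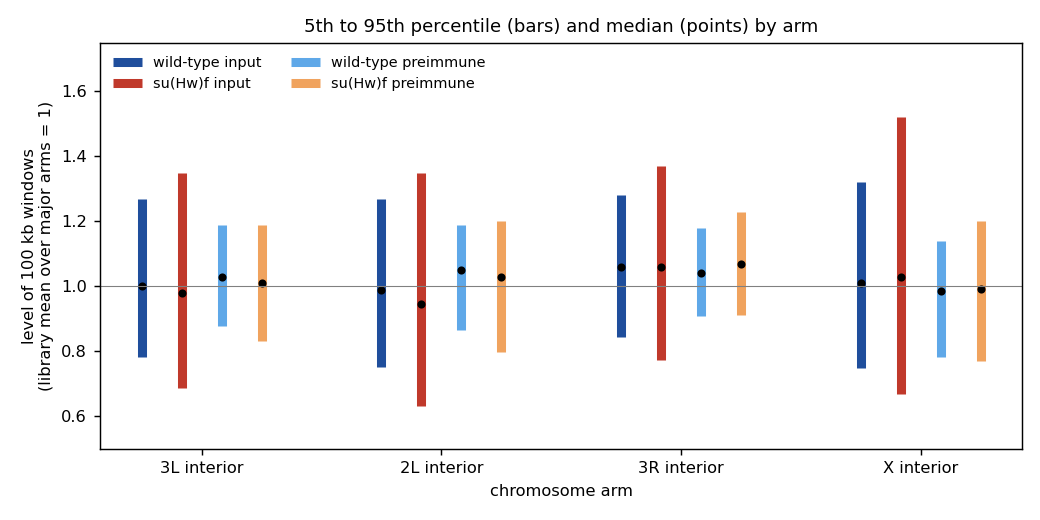
Level of 100 kb windows (y axis, library mean over the major arms = 1) in the interiors of 3L, 2L, 3R and X, with a bar from the 5th to the 95th percentile and a point at the median for each library. On 3L the bar runs from 0.688 to 1.35 in su(Hw)f input and from 0.877 to 1.19 in wild-type preimmune, and su(Hw)f input has the longest bar on every arm shown.

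The ratio of preimmune to input asked what serum alone recovered more or less of. At 100 kb the ratio was above 1 in both strains in 120 of 224 windows and below 1 in both in 76. It was split in 28 (22 above 1 in the mutant only and 6 in wild type only). These counts rest on the scaling to reads on the major arms. The median 100 kb ratio in the mutant was 1.04. Scaling by the median ratio took the mutant ratio over the whole interior from 1.024 to 0.9285. How many windows would change side was not tested, and no share over the major arms is given. The counts are therefore not read as an excess above 1. The windows highest in both strains lay in long dips. In 18400001 to 18500000 there were 11269 preimmune and 8817 input reads in wild type and 14448 and 10626 in the mutant. The ratio there was 1.48 in wild type (1.44 to 1.52) and 1.40 in the mutant (1.36 to 1.43), the highest mean of the interior. The next 4 were 18300001 to 18400000 (1.40 and 1.45), 14300001 to 14400000 (1.49 and 1.33), 18500001 to 18600000 (1.45 and 1.37) and 14200001 to 14300000 (1.35 and 1.38).

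The lowest ratio was in 1700001 to 1800000, with 8676 preimmune and 17207 input reads in wild type and 20259 and 30296 in the mutant. It came to 0.583 in wild type (0.568 to 0.598) and 0.687 in the mutant (0.675 to 0.700). The windows 1600001 to 1700000 (0.697 and 0.761), 13400001 to 13500000 (0.724 and 0.792) and 1500001 to 1600000 (0.718 and 0.825) were rises too. In 19800001 to 19900000, which was no rise, the ratios were 0.775 and 0.780 at input levels of 1.08 and 1.23, and it lies next to the lowest dip. Input is the denominator of these ratios and also chose the dips and rises, so a high ratio in a dip and a low ratio in a rise is a description and supports nothing further.

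At 1 kb a window was called when preimmune and input differed at least 2-fold and held at least 20 counts together. In wild type 2143 of 21611 tested windows of the 3L interior were higher in preimmune (9.92%, background over the major arms 9.75%) and 1881 were lower (8.70%, background 10%). In the mutant 1454 of 21626 were higher (6.72%, background 6.82%) and 615 were lower (2.84%, background 3.35%). All 4 shares were near the background. The mutant balance rests on the scaling: scaled by the median ratio, which removes a shift of 0.14 on the log2 scale, 860 were higher and 1011 lower. Higher in both strains were 693 windows (3.21% of those tested in both, background 3.28%), which is 32.5% of the wild-type list and 48.0% of the mutant list. Lower in both were 394 (1.82%, background 2.25%), or 20.9% and 64.1%. Lower in wild type and higher in the mutant were 4 (0.0185%, background 0.0123%), and 0 had the reverse pair of calls (background 0.00440%).

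In the libraries of the other strain, which did not choose these windows, levels also departed from those of all windows. Windows higher in wild type had a median level of 0.811 in mutant preimmune and 0.469 in mutant input, where all windows had 1.02 and 0.890. Windows lower in wild type had 1.22 and 1.95. The input of the other strain thus shifted more than its preimmune in each direction. Windows higher in the mutant had a median level of 1.25 in wild-type preimmune and 0.641 in wild-type input, and windows lower in the mutant 0.710 and 1.68, where all windows had 1.0 and 0.974. Wild-type preimmune and input departed in opposite directions there.

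Among windows called in both strains with at least 20 reads in each library, the highest mean ratio was at 11598001 to 11599000. In wild type it held 176 reads in preimmune and 31 in input, and in the mutant 96 and 29, ratios of 6.56 (4.46 to 9.95) and 3.40 (2.23 to 5.35). The next were 15628001 to 15629000 (6.58 and 3.08), 10520001 to 10521000 (6.90 and 2.89), 10647001 to 10648000 (4.90 and 3.84), 7749001 to 7750000 (4.49 and 4.06) and 19773001 to 19774000 (4.65 and 3.82). In all 6 input was low, between 0.228 and 0.579 of its mean in wild type and between 0.131 and 0.267 in the mutant. Only 10647001 to 10648000 had a mutant preimmune level above 1, at 1.02, while wild-type preimmune was at 1.5 or more in every one of them.

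The lowest window, 13423001 to 13424000, held 52 reads in preimmune and 315 in input of wild type and 117 and 706 of the mutant, ratios of 0.191 (0.139 to 0.257) and 0.170 (0.139 to 0.207). It lies in a 100 kb rise, and its input stood at 2.77 in wild type and 4.19 in the mutant. The next were 7824001 to 7825000 (0.174 and 0.275), 11845001 to 11846000 (0.181 and 0.278), 8459001 to 8460000 (0.204 and 0.290), 2794001 to 2795000 (0.181 and 0.326) and 17963001 to 17964000 (0.229 and 0.282). Input was high in all 6, from 1.40 to 2.77 in wild type and from 2.08 to 4.19 in the mutant. The high and low ends of the list were windows where both inputs were far from 1. Input is the denominator of the ratios that ranked them, so this is a description and supports nothing further.

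By the rule used, strain differences in input made up a smaller share of the 3L interior than of the major arms. At 10 kb, with at least 1.5-fold and 50 counts, mutant input was higher in 2 of 2234 windows (0.0895%, background 0.294%) and lower in 16 (0.716%, background 1.34%). Preimmune was higher in the mutant in 36 windows (1.61%, background 2.57%) and lower in 66 (2.95%, background 3.42%). All 4 shares were below the background, which also takes in chromosome 4 and the arm ends. Against the interiors of 2L, 3R and X, 3L was not low in lower input windows, which made up 0.332%, 0.153% and 0.828% there. Higher input windows made up 0.332%, 0.115% and 0.0487% in that order. For preimmune the higher shares were 1.85%, 1.68% and 4.24%, and the lower shares 3.46%, 1.87% and 2.82%. Of the called windows, 1 was higher in both kinds of library, which is 50% of the input list and 2.78% of the preimmune list, and 8 were lower in both, which is 50% and 12.1%. Those lower in both were mostly in a segment described below, which was bounded by wild type being higher in input and in preimmune. They were 13860001 to 13880000, 13820001 to 13840000 and 13890001 to 13900000. Outside it were 18030001 to 18040000, and 20320001 to 20330000 and 13520001 to 13530000, with 74.0% and 60.0% of their 100 bp windows empty. None was called in opposite directions. The input lists are short and no share over the major arms was taken for these overlaps, so they are not read as a property of 3L.

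The preimmune calls went with the level of input. The 36 windows with higher mutant preimmune had a median wild-type input level of 1.41, and the 66 with lower mutant preimmune a median of 0.772, against 0.987 over all 10 kb windows. Wild-type input takes no part in the preimmune ratio. At 100 kb the windows with the highest mutant to wild-type ratio over input and preimmune were all rises: 1700001 to 1800000 (1.19 in input and 1.40 in preimmune), 3100001 to 3200000 (1.10 and 1.29), 1500001 to 1600000 (1.09 and 1.26), 13400001 to 13500000 (1.11 and 1.21) and 800001 to 900000 (1.10 and 1.22). Among the lowest, 18400001 to 18500000 (0.815 and 0.770), 10500001 to 10600000 (0.857 and 0.744), 18500001 to 18600000 (0.836 and 0.786) and 14400001 to 14500000 (0.839 and 0.787) were dips. The exception, and the lowest of all, was 13800001 to 13900000, which was no dip. The inputs enter both the ranked ratio and the choice of dips and rises, so these ranks are a description and support nothing further.

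In 13800001 to 13900000 wild-type preimmune held 12619 reads, wild-type input 13225, mutant preimmune 13325 and mutant input 12941. Scaled, the mutant to wild-type ratio was 0.661 for input (0.646 to 0.678) and 0.634 for preimmune (0.619 to 0.650).

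The bounds of this segment were set after seeing the data, as a run of at least 5 windows of 20 kb more than 1.1-fold higher in wild type in input and in preimmune. The run was 13820001 to 13980000, which is 160 kb. Levels over it were 1.47 in wild-type preimmune, 1.35 in its input, 1.01 in mutant preimmune and 0.988 in mutant input. Over the whole run wild type was raised in both of its libraries, and the mutant was near its mean in both. The mutant was not even along it: by 20 kb windows its input ran from 0.728 to 1.31 and its preimmune from 0.894 to 1.13. In 13600001 to 13800000 input stood at 0.921 in wild type and 0.818 in the mutant, and in 14020001 to 14220000 at 0.994 and 0.943. Over the run the wild-type to mutant ratio was 1.37 for input (1.35 to 1.40) and 1.45 for preimmune (1.43 to 1.48). In 13600001 to 13800000 it was 1.13 and 1.10, and in 14020001 to 14220000 it was 1.05 and 1.07. Among 1092 windows of 160 kb that do not overlap the segment, taken every 20 kb, the highest ratio was 1.24 in input and 1.35 in preimmune. The segment was placed by these same ratios and those windows were not, so its higher ratios are a description only.

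The ratio was uneven inside the segment and already above 1 ahead of it, at 1.16 in input and 1.20 in preimmune in 13780001 to 13800000, before the empty run from 13797701 to 13815900. After that run it was 1.64 and 1.83 at 13820001 to 13840000. It was highest at 13860001 to 13880000, with 3890 input reads in wild type and 3146 in the mutant and a ratio of 1.83 (1.74 to 1.92), and 2.0 in preimmune (1.90 to 2.10). It came down to 1.13 and 1.20 at 13960001 to 13980000 and to 1.04 and 1.07 in the next 20 kb. At 14000001 to 14020000, the edge of a rise, it was below 1, at 0.793 and 0.794. The other 3 runs that met the rule, 10460001 to 10560000, 14520001 to 14620000 and 18320001 to 18520000, lay wholly or mostly in the long dips and had wild-type input levels of 0.797, 0.800 and 0.741. Their ratios were 1.22, 1.16 and 1.23 in input and 1.40, 1.32 and 1.25 in preimmune.

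**Figure D5:**
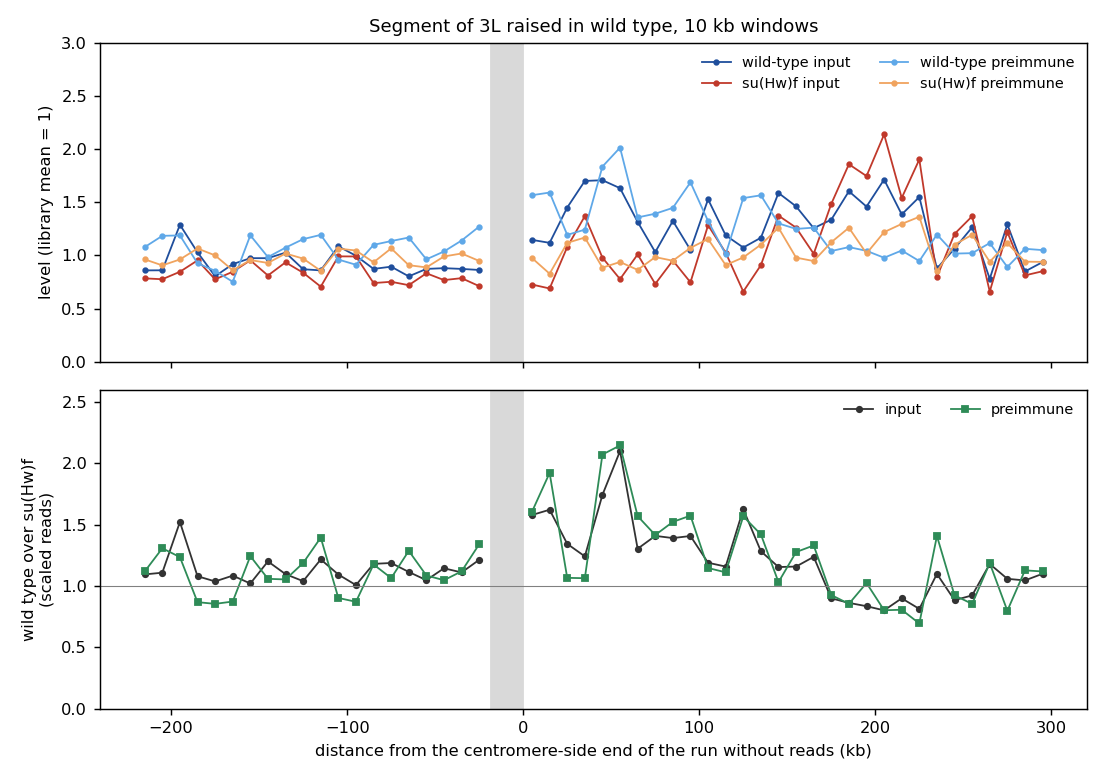
Levels of the 4 libraries (upper panel) and the wild-type to su(Hw)f ratio of scaled reads in input and preimmune (lower panel) in 10 kb windows, against distance in kb from the centromere-side end of the run without reads (shaded, 18200 bp). Both ratios stand above 1 across the 160 kb of the segment (1.37 in input and 1.45 in preimmune), unevenly. Before the run they are lower as a whole (1.13 and 1.10 over 13600001 to 13800000), though single windows there reach 1.52 in input and 1.40 in preimmune.

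By the naming rule, the longest merged input regions of 10 kb windows were 13860001 to 13880000 (input ratio of mutant to wild type 0.547, preimmune 0.500) and 13820001 to 13840000 (0.609 and 0.548), both inside the segment. The segment, which was bounded by these same ratios, held 6 of the 16 lower input windows, and 10 were lower without it. Leaving out the fullest 1 kb, 13865001 to 13866000, which held 635 reads in wild-type input and 615 in mutant input, the ratio at 13860001 to 13880000 was 0.526 in input and 0.495 in preimmune. Another named region in the segment, 13890001 to 13900000, was at 0.642 and 0.645. Of the other 7 named regions, 5 had from 58.0% to 91.0% of their 100 bp windows empty and held between 26 and 242 reads in mutant input. The remaining pair were 13620001 to 13630000 (0.626 in input and 0.788 in preimmune) and 7350001 to 7360000 (0.635 and 0.749), and neither reached 1.5-fold in preimmune.

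At 1 kb, a rule added after seeing the data asked for a 2-fold difference in input and in preimmune alike. Of 21610 windows tested, 17 were higher in the mutant (0.0787%, background 0.172%) and 207 were lower (0.958%, background 1.25%). The segment, which was bounded by wild type being higher in input and in preimmune, held 16 of the 207. Among those with at least 20 reads in each library, 6 and 179 in turn, the largest increase in the mutant, by the mean of both log2 ratios, was at 20816001 to 20817000, where wild type held 80 preimmune and 55 input reads and the mutant held 1195 and 650. The mutant was high in both of its libraries, at levels of 7.29 and 3.86, and wild type was below its mean in both, at 0.812 and 0.483. The ratio was 7.99 for input (6.06 to 10.7) and 8.97 for preimmune (7.15 to 11.4). The single 100 bp window 20816201 to 20816300 held 330 mutant preimmune and 222 mutant input reads, the most of any window of the interior in either library. The strongest decrease by that mean was at 12639001 to 12640000, with 102 and 70 reads in wild type against 28 and 22 in the mutant, ratios of 0.212 in input (0.125 to 0.347) and 0.165 in preimmune (0.104 to 0.253). Of the next 4 by that mean, 3 had a lower ratio in preimmune, 15336001 to 15337000 (0.110), 9149001 to 9150000 (0.112) and 18569001 to 18570000 (0.132).

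Some stretches were missing from 1 strain. A 1 kb window was taken as absent when a strain had under 5% of the depth-scaled reads of the other, summed over preimmune and input, and the other had at least 40. In the mutant 1 of 21561 windows was absent (background 0.139%), at 17827001 to 17828000, where wild type held 38 preimmune and 55 input reads and the mutant held 0 in both. A count of 0 allows up to 2.06% of the wild-type reads (3 counts). By 100 bp windows the empty run was 17826801 to 17828000, which is 1200 bp.

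In wild type 6 of 21580 windows were absent (background 0.0794%), in 5 stretches, and all of them held 0 reads in both wild-type libraries. At 7308001 to 7309000 the mutant held 282 preimmune and 172 input reads, and a count of 0 allows up to 1.03% of them in wild type. The empty run there was 7307801 to 7309300, and the mutant stood in it at 1.57 times its mean in preimmune and 1.20 in input. At 9971001 to 9973000 the mutant held 249 and 196 reads, at 22843001 to 22844000 101 and 123, and at 10884001 to 10885000 102 and 58. These stretches were covered at 0.342 to 0.719 of the mean over their empty runs. At 6141001 to 6142000 the mutant held 72 and 75 reads, but over the 4800 bp run around it its level was only 0.0965 in preimmune and 0.0927 in input.

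Counted at 100 bp by a rule added after seeing the data (at least 5 neighbouring windows at 0 in 1 strain and at least 100 reads in the other), 1 run was missing from the mutant and 10 from wild type. These held 0.00535% and 0.0686% of the 100 bp windows of the 3L interior, where the background over the major arms was 0.151% and 0.169%. On the major arms as a whole 67 runs were missing from the mutant and 57 from wild type. The wild-type runs measured 600 to 4800 bp and came to 15400 bp in all. Among those that the 1 kb rule did not find, 10098601 to 10099200 held 110 preimmune and 116 input reads in the mutant, above the mean in both libraries, and 17761301 to 17762000 held 95 and 121, levels of 0.828 and 1.03. The strain libraries differ in depth, with fewer reads in wild type, and the part of that in the larger number of wild-type runs was not tested.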

How the data were processed

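The deposited values are read counts per 100 bp window, whole and unscaled, in wiggle format per the file headers, for 1 preimmune and 1 input library per genotype. Per the submitters' processing notes, the build was dm3 and Partek 6.5 was used. How reads were aligned, and how duplicates and multiply matching reads were treated, is not given in the sources used here. Duplicates that were kept would widen scatter, and reads dropped for several matches would leave repeats empty. Library totals were 12173312, 13993582, 20130453 and 20596448 reads (wild-type preimmune and input, su(Hw)f preimmune and input). Counts were summed to 1, 10, 20 and 100 kb and scaled to reads on the 6 major arms. Ratios carry 95% exact conditional intervals (Clopper-Pearson) and levels exact Poisson intervals. PCR reads are not independent molecules, so these cover counting error only.

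Named regions followed fixed ranks: the 6 lowest dips and 6 highest rises, 5 windows of 100 kb at each end of a ratio, 6 windows of 1 kb called in both strains at each end (20 reads in each library), the 10 longest strain regions of 10 kb and all absent stretches. The members and lists were chosen with earlier results of these data known. Python 3.11.15, numpy 2.4.6, scipy 1.17.1 and matplotlib 3.10.9 were used.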

Additional observations from a re-analysis of the deposited data

Results flagged for a closer look

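In 4 windows of 1 kb preimmune over input was at least 2-fold lower in wild type and at least 2-fold higher in su(Hw)f, and the difference between the strains was not tested. These are 0.0185% of the windows tested in both strains, where the background over the major arms was 0.0123%. At 5413001 to 5414000 on 3L the ratio was 0.270 in wild type, from 7 preimmune and 30 input reads, and 2.18 in su(Hw)f, from 34 and 16. At 15526001 to 15527000 it was 0.474 (41 and 100 reads) and 2.87 (265 and 95). At 18361001 to 18362000 it was 0.416 (41 and 114 reads) and 2.27 (247 and 112). At 21480001 to 21481000 it was 0.257 (4 and 18 reads) and 2.15 (23 and 11). The middle pair rest on the most reads, and in both of them su(Hw)f preimmune held the most reads of the 4 libraries. Out of 21598 windows tested in both strains, none had the reverse pair of calls.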

How the results depend on the processing

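No paired analysis was possible because each group has 1 library and no test was run, and no replicate could be left out. Dips numbered 54 at a threshold of 10%, 15 at 20%, 81 in 50 kb windows and 9 in 200 kb windows. Among the 144 windows under 5% empty they numbered 12, an alternative added after seeing the data. Rises numbered 46 at 10%, 77 in 50 kb windows and 11 in 200 kb windows. Window number itself changes with window size. In 5 kb windows preimmune over input was called higher in 79 and lower in 72 windows in wild type and in 24 and 6 in su(Hw)f. Scaling by the median ratio gave 860 and 1011 in su(Hw)f at 1 kb. Between strains, input was higher in 0 and lower in 1 window of 50 kb, and higher in 0 and lower in 4 of 10 kb at 2-fold. Preimmune was higher in 1 and lower in 1 of 50 kb, and higher in 0 and lower in 4 at 2-fold. Without the segment raised in wild type, added after seeing the data, 10 input windows were lower. Scaling to all reads gave arm ratios of 1.021 and 1.019 (preimmune over input, wild type and su(Hw)f), 0.9877 (input between strains) and 0.9854 (preimmune between strains). Scaling by the median ratio gave 1.014, 0.9285, 1.029 and 0.9483, so mutant preimmune over input and input between strains turned direction. The cause of these shifts was not tested. The other 33 alternatives stayed within 1.5 times the main count. Scatter between neighbouring windows beyond Poisson limits what a single 1 kb window can show.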
